A study of Mus musculus with 8 samples.

Results

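The T cell receptor signalling and subset genes comprise 43 of the 26939 genes in the joined count tables. They were chosen by gene name, with no threshold on a measured value, but with earlier results of these data known. The set holds 7 genes of the T cell receptor (TCR) complex, 3 coreceptor genes, 7 adhesion and costimulatory receptors, 5 inhibitory receptors, 11 kinases and adaptors, 6 transcription factors, and 4 further genes (*Ifng*, *Il2rb*, *Il7r* and *Gimap3*). Of the 43 genes, 42 were found under their own symbol. *Bcl11b* was found by its gene identifier, since the tables list that identifier under another name.

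The RNA came from tumor-associated macrophages (TAMs) sorted from EO771 tumors, with a gate for living cells that were CD45+, CD11b+ and F4/80+ but Gr-1−. EO771 is a mouse breast cancer cell line, grown here in the mammary fat pad of female C57BL/6J mice aged 8 to 14 weeks. Tumors were harvested at day 21, and bulk RNA-seq gave 8 libraries, 2 for each combination of genotype (WT or *Unc93b1* 3d/3d) and treatment (control or αMARCO). For replicate 2 of the *Unc93b1* controls the genotype label reads 3d/4d and the title 3d/3d, and it was grouped by its title. The 3d allele is a point mutation of *Unc93b1*, the protein that carries endosomal Toll-like receptors to their compartment, and homozygous mice lack functional TLR3, TLR7 and TLR9. αMARCO is an antibody against the scavenger receptor MARCO, given intravenously at 100 µg per dose on days 3, 6, 9 and 12. The labels name the control mice untreated or PBS and the study's methods name an isotype control, so which injection they received is not settled. Each control sample was a pool of 3 mice, and how the 2 libraries of each αMARCO group were drawn is not given in the sources used here. The labels do not say that the 2 libraries of a group came from separate experiments, so p-values measure the spread between these libraries only.

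A T cell recognizes peptide on MHC through the TCR chains, which have no signalling tail of their own and depend on the CD3 chains. The coreceptors CD4 and CD8 bring the kinase LCK to the receptor, ZAP70 docks on the phosphorylated CD3 chains, and the adaptor LAT passes the signal on. CD8 marks cytotoxic T cells, CD4 with FOXP3 marks regulatory T cells, PD-1, LAG3 and TIGIT accumulate on exhausted cells, and LEF1, TCF1 and the IL-7 receptor mark naive and memory cells. None of these assignments is exclusive, as macrophages and dendritic cells can also carry CD4, and innate lymphoid cells carry many of the same receptors.

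The library totals ranged from 15182618 to 26411936 counts. A level of 3 counts, taken here as the least that counts as detected, was worth between 0.114 and 0.198 CPM, the count scaled to library size, and it covers counting error only. All 43 genes reached 3 counts in both WT control libraries, 41 and 42 did so in the *Unc93b1* 3d/3d controls, 40 and 43 in WT with αMARCO, and 38 and 32 in *Unc93b1* 3d/3d with αMARCO. The gate selects macrophages, and the 10 macrophage and gate genes summed to between 7250 and 9309 CPM in every library. T cell transcripts were a minor part of each library, with the 4 signalling chains of the TCR complex holding between 1.30e-04% and 0.00393% of all counts. In bulk RNA, fewer cells of a type and less RNA per cell cannot be told apart.

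Promoter sequences are shown for *Cd3d* and *Cd3g*, which are transcribed away from each other with 1354 bases between them and were both called in the 2 comparisons that gave calls, and for *Cd8a*, the member with the largest fold change between the control groups. The sequences are the 250 bases before the RefSeq transcript start (GRCm38.p6), read on the strand of the gene, at chr9:44981536-44981785 (+) for *Cd3d*, chr9:44980432-44980681 (−) for *Cd3g* and chr6:71373177-71373426 (+) for *Cd8a*. Capitals mark the searched motifs on either strand: ACCACA for RUNX, GGAAGT for ETS, CTTTGA for TCF/LEF, CAGGTG for the E-box and AGATAA as a GATA motif.
Cd3d: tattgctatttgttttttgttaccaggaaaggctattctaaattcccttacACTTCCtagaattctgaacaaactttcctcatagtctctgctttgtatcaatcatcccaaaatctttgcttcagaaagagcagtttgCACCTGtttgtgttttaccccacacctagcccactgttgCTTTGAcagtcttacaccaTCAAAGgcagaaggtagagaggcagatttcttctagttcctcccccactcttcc
Cd3g: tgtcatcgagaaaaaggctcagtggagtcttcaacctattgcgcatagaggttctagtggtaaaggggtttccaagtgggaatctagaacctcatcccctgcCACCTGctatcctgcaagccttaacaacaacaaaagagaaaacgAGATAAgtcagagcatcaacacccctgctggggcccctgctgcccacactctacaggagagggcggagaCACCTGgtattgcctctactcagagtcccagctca
Cd8a: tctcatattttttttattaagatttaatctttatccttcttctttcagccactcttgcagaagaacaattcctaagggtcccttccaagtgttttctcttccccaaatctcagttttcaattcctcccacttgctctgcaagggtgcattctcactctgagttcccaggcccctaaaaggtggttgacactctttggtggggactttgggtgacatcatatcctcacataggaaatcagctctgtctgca

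The *Cd3d* window held 1 ETS, 2 TCF/LEF and 1 E-box match, the *Cd3g* window held 2 E-box and 1 GATA match, and the *Cd8a* window held none of these letters. Of the 43 genes, 27 had a promoter in the RefSeq table, with 37 windows in all. The ETS letters were in 37.8% of those windows and in 19.7% of the 32851 windows in the table, and the E-box letters in 27.0% and 17.2%. RUNX (13.5% and 14.0%), TCF/LEF (16.2% and 13.8%) and GATA (10.8% and 9.99%) were at similar shares in both. A match is a description of the letters in the window and not a bound site.

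In control TAMs, most T cell genes were higher in WT mice than in the mutant, and in WT mice nearly all of them fell with αMARCO. By subset, RNA of CD8, regulatory, exhausted and Th1 genes was readily counted in the WT controls, while RNA of naive (*Lef1*), Th17 and γδ genes was close to the limit of detection. Between the control groups, 32 of the 43 genes were called higher in WT by edgeR, where 6.58% of all 15600 tested genes were, and 1 (*Cd4*) was called lower, where 6.4% were. A gene was called where its Benjamini-Hochberg adjusted p over all tested genes was at most 0.05 and it changed by 0.5 or more on the log2 scale. The median log2 fold change was 2.47 over the 43 genes and −0.00 over all tested genes. In WT mice, αMARCO against control gave 40 of 43 genes called lower, where 11.8% of 15630 tested genes were, and 0 called higher, where 8.91% were. The median there was −2.75, against −0.01 over all tested genes. Both comparisons use the same 2 WT control libraries, so a level that was high in those libraries enters both. With all 8 libraries in 1 model, 19 genes were called higher between the control groups and none lower, and 15 were called lower with αMARCO in WT. These are 44.2% and 34.9% of the 43 genes, where 2.19% and 0.987% of all 16620 tested genes were called in either direction.

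**Figure D1:**
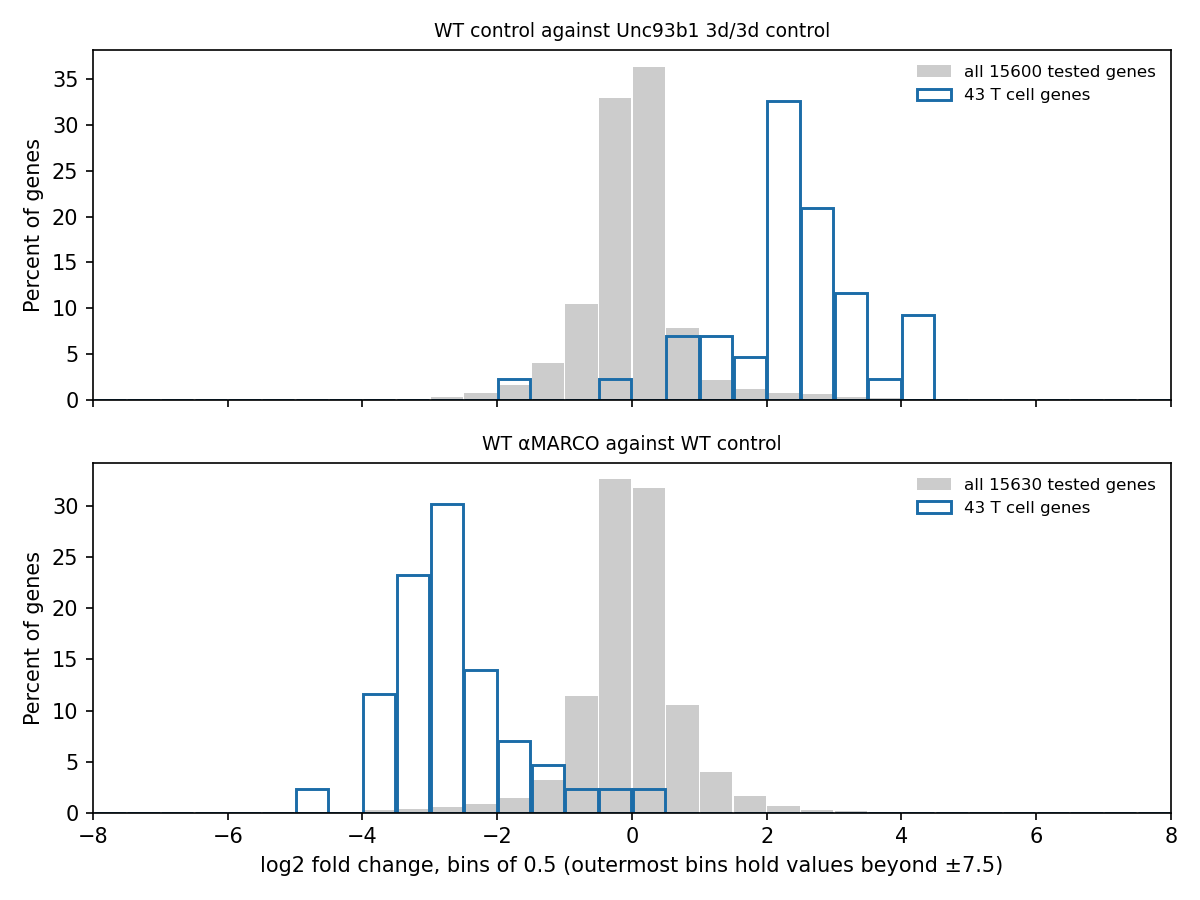
Distribution of log2 fold changes in bins of 0.5 for all tested genes (grey bars) and for the 43 T cell genes (blue outlines), each as percent of its own total. In the upper panel (WT control against *Unc93b1* 3d/3d control) the outlines center near 2.47 and in the lower panel (WT αMARCO against WT control) near −2.75, while the grey bars center at 0.

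The groups did not overlap for 41 of the 43 genes with WT control on top, where 33.2% of tested genes had this order, and *Cd4* had the opposite order, with 29.9% of tested genes. The exception was *Il7r*. In WT mice, both αMARCO libraries were below both control libraries for 41 genes, where 36.8% of tested genes had this order, and *Il7r* and *Cd226* overlapped. WT control had the highest mean CPM of the 4 groups for 41 genes, and *Unc93b1* 3d/3d αMARCO had the lowest for 37.

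**Figure D2:**
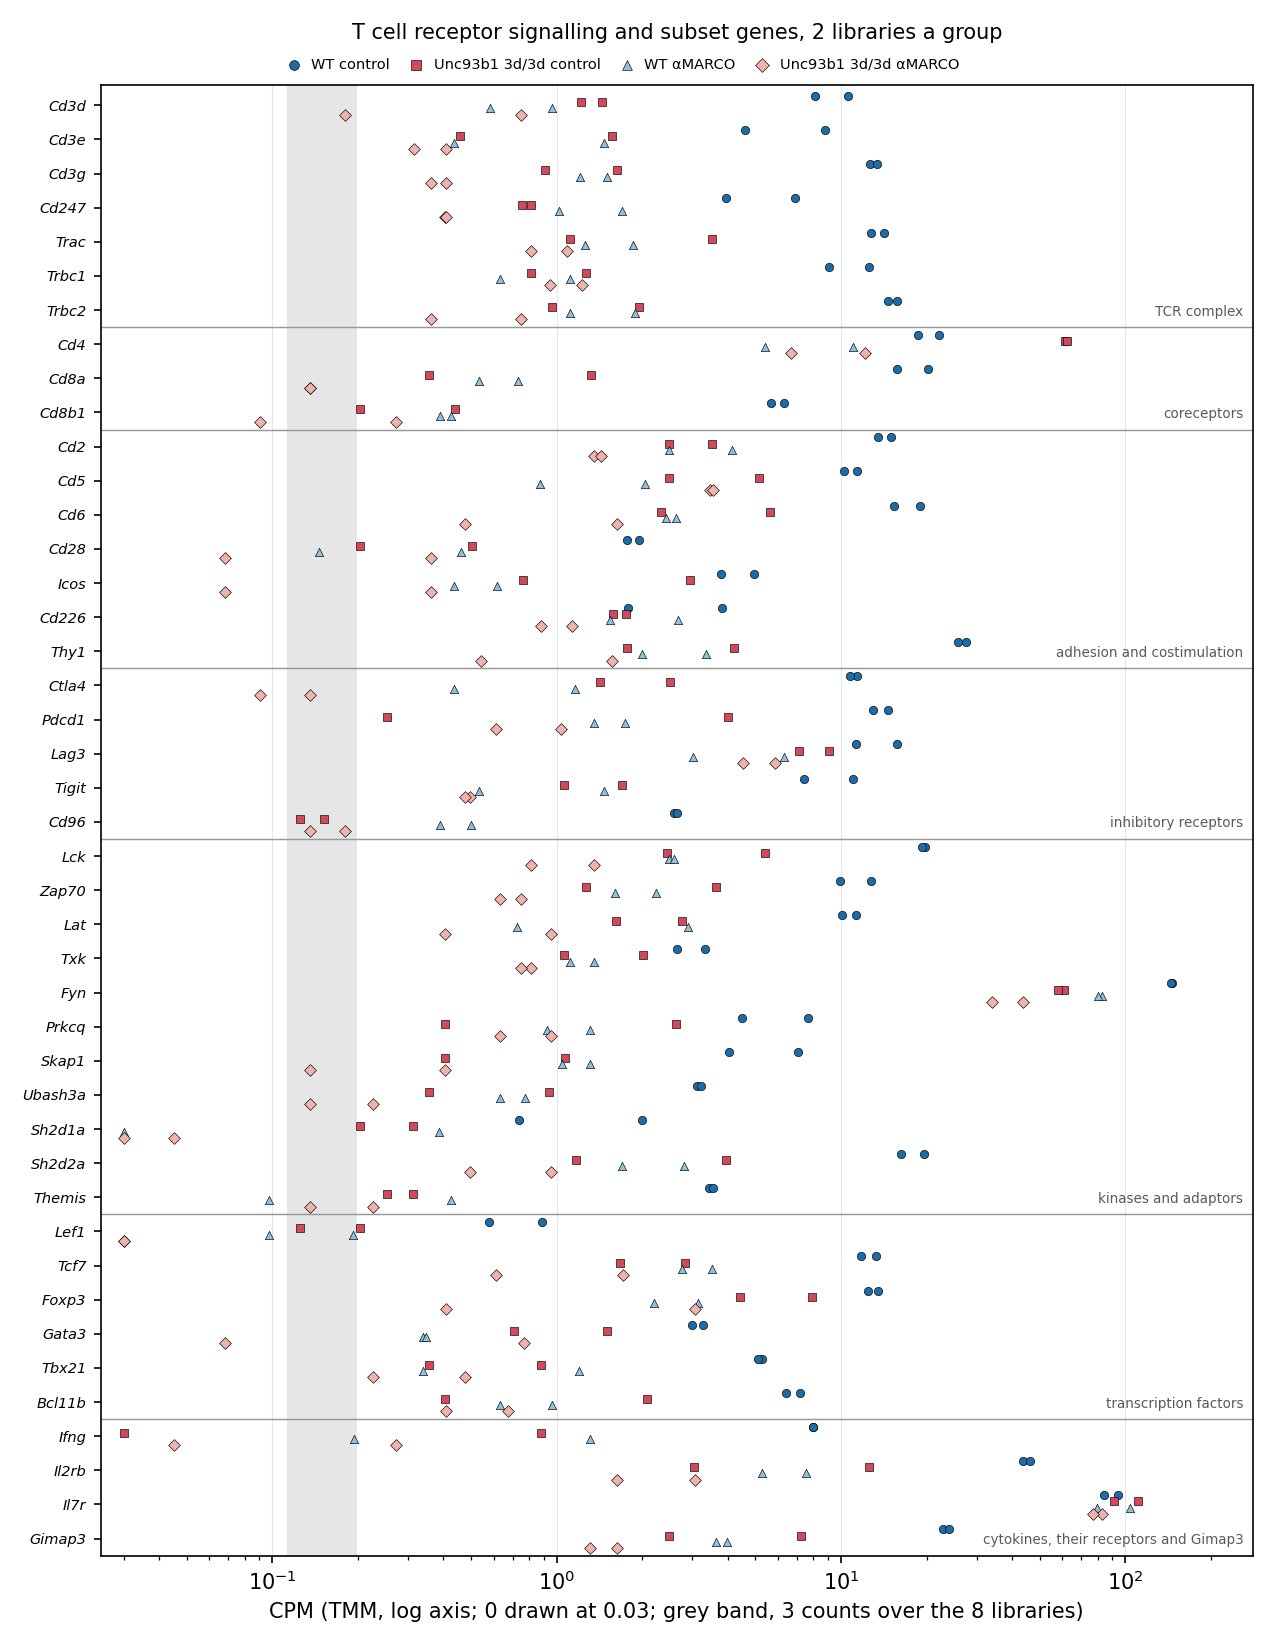
CPM of each of the 43 genes in each of the 8 libraries, on a log axis, grouped by role, with libraries at 0 drawn at 0.03 and the level of 3 counts as a grey band. The WT control libraries (circles) lie to the right of the other groups for nearly all genes, with *Cd4* highest in the *Unc93b1* 3d/3d controls (squares) and *Il7r* alike in all groups.

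The TCR complex genes all moved the same way. *Cd3e*, a chain that every T cell receptor needs, was at 4.58 and 8.81 CPM in the WT controls, 1.57 and 0.457 in the *Unc93b1* 3d/3d controls, and after αMARCO 0.437 and 1.47 in WT and 0.316 and 0.408 in *Unc93b1* 3d/3d mice. Both WT control libraries were above all 6 others, and the other 3 groups overlapped or lay close to each other. The log2 fold change was 2.74 ± 0.57 (SE) between the control groups (adjusted p = 0.0183, edgeR), and −2.75 ± 0.55 with αMARCO in WT (adjusted p = 0.00974). *Trac*, the constant region of the TCR α chain, was at 14.2 and 12.8 CPM in the WT controls, 3.52 and 1.12 in the *Unc93b1* 3d/3d controls, and after αMARCO 1.26 and 1.85 in WT and 0.812 and 1.09 in *Unc93b1* 3d/3d mice. It was 5.89-fold higher in the WT controls than in the *Unc93b1* 3d/3d controls (log2 fold change 2.56 ± 0.45, adjusted p = 0.0107) and 8.51-fold lower with αMARCO in WT (adjusted p = 6.97e-05). The other CD3 chains (*Cd3d*, *Cd3g*), the ζ chain *Cd247* and the β constant regions *Trbc1* and *Trbc2* had log2 fold changes from 2.76 to 3.39 between the control groups and from −3.58 to −1.96 with αMARCO in WT, and all were called. *Trbc1* and *Trbc2* are nearly identical in sequence, so the split of reads between them is uncertain, and *Cd247* overlaps *Pou2f1* on the other strand, where the strand setting of the counting is not given.

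Summed over *Cd3d*, *Cd3e*, *Cd3g* and *Cd247*, the signalling chains were at 29.3 and 39.7 CPM in the WT controls (34.5 ± 7.37, SD, n = 2). They were at 5.40 and 3.40 CPM in the *Unc93b1* 3d/3d controls (4.40 ± 1.41), at 3.25 and 5.63 in WT with αMARCO (4.44 ± 1.68), and at 1.26 and 1.97 in *Unc93b1* 3d/3d with αMARCO (1.62 ± 0.501). *Unc93b1* 3d/3d control and WT αMARCO overlapped, and WT control stood above every other library. These sums rest on 556 and 716 counts in the WT controls but only 28 and 29 in *Unc93b1* 3d/3d with αMARCO. An exact permutation test of 2 against 2 libraries cannot reach 0.05, so the sums are given as a description.

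Variable segments of the receptor genes, which are not among the 43, gave a separate count of rearranged receptor RNA. Of the 61 Trav, Trbv, Trgv and Trdv segments in the tables, 23 and 25 had at least 3 counts in the WT control libraries. In *Unc93b1* 3d/3d control 5 and 6 did, in WT with αMARCO 1 and 8, and in *Unc93b1* 3d/3d with αMARCO 4 and 2. Altogether 171 and 220 counts fell on these segments in the WT controls, against 14 to 48 in the other 6 libraries. In WT control the Trbv segments held 108 and 136 of them, with at least 3 counts on 13 and 16 of the 19 listed segments. Of the segments found in the WT controls, 12 reached 3 counts in both libraries and 36 in either. In *Unc93b1* 3d/3d control the Trav segments held more counts (22 and 33) than the Trbv segments (7 and 13).

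**Figure D3:**
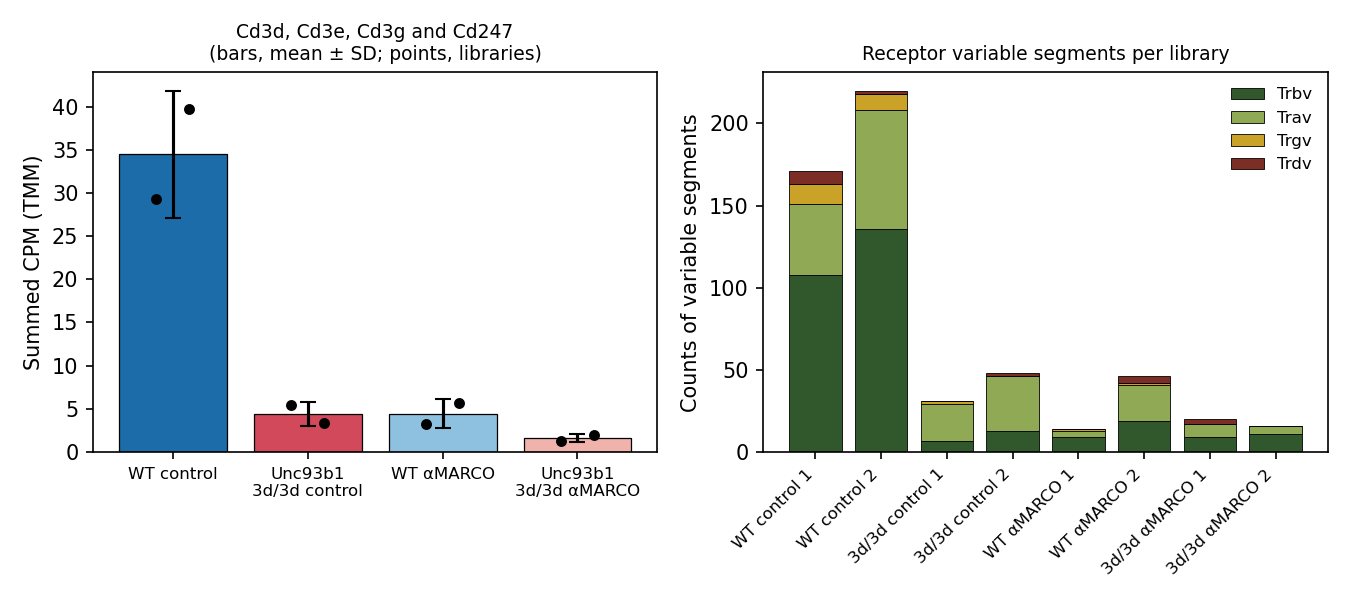
Left, summed CPM of *Cd3d*, *Cd3e*, *Cd3g* and *Cd247* (bars, mean ± SD of 2 libraries; points, libraries), with WT control at 34.5 and the other groups between 1.62 and 4.44. Right, counts on TCR variable segments per library by locus, with 171 and 220 in the WT controls and at most 48 elsewhere.

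γδ T cell RNA was near the limit of detection. The δ constant region *Trdc* had 15 and 17 counts in the WT controls, 1 and 0 in the *Unc93b1* 3d/3d controls, 8 and 8 in WT with αMARCO, and 3 and 2 in *Unc93b1* 3d/3d with αMARCO. *Trdc* was called higher in the WT controls (adjusted p = 0.0196), as was the γ constant region *Tcrg-C2* (log2 fold change 2.68 ± 0.66, adjusted p = 0.0231). Of the 12 listed γδ genes 8 were in the tables and 4 were tested between the control groups, and the other 2 tested were not called.

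The coreceptors split. *Cd8a*, the CD8 α chain, was at 15.7 and 20.3 CPM in the WT controls and 1.32 and 0.355 in the *Unc93b1* 3d/3d controls, and at 0.534 and 0.733 in WT with αMARCO and 0.135 and 0.136 in *Unc93b1* 3d/3d with αMARCO. It had the largest fold change of the 43 genes in both comparisons, 22-fold higher in the WT controls (log2 fold change 4.46 ± 0.45, adjusted p = 0.00110) and 27.6-fold lower with αMARCO in WT (log2 fold change −4.79 ± 0.26, adjusted p = 1.93e-05). *Cd8b1*, the β chain, found mainly on conventional CD8 T cells, had 5.68 and 6.32 CPM in the WT controls, 0.439 and 0.203 in the *Unc93b1* 3d/3d controls, and after αMARCO 0.388 and 0.424 in WT and 0.0903 and 0.272 in *Unc93b1* 3d/3d mice. Its log2 fold changes were 4.22 ± 0.43 (adjusted p = 4.00e-04) and −3.85 ± 0.34 (adjusted p = 1.09e-04). For both CD8 chains the WT control libraries were far above every other library.

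*Cd4* ran against the other T cell genes between the control groups. It was at 18.6 and 22.1 CPM in the WT controls and 61.6 and 62.2 in the *Unc93b1* 3d/3d controls, at 5.39 and 11 in WT with αMARCO and at 12.2 and 6.66 in *Unc93b1* 3d/3d with αMARCO. The *Unc93b1* 3d/3d control libraries were the highest and close to each other, and *Cd4* was 3.08-fold lower in the WT controls (log2 fold change −1.62 ± 0.12, adjusted p = 6.54e-05). With αMARCO in WT the log2 fold change was −1.29 ± 0.33 (adjusted p = 0.0292), and the call was lost when either WT control library was left out (adjusted p = 0.236 and 0.276). The tables' neighbour of *Cd4* on the same strand, *Lag3*, lies 16139 bases away. Per length, *Cd4* and *Cd8a* were at like levels in the WT controls, with *Cd4* at 4.62 and 5.47 RPKM, the CPM divided by the gene length in kilobases, and *Cd8a* at 4.31 and 5.58. In *Unc93b1* 3d/3d control *Cd4* was at 15.3 and 15.4 RPKM and *Cd8a* at 0.362 and 0.0976.

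Set against the TCR complex of the same library, *Cd4* and *Cd8a* went in opposite directions between the control groups. The ratio of the RPKM of a gene to the summed RPKM of the 4 signalling chains was 0.453 and 0.409 for *Cd4* in the WT controls, 8.39 and 12.7 in the *Unc93b1* 3d/3d controls, 1.35 and 1.64 in WT with αMARCO and 8.31 and 2.32 in *Unc93b1* 3d/3d with αMARCO. In *Unc93b1* 3d/3d control, *Cd4* RNA therefore exceeded the summed signalling chains, and the mean ratio was 24.5 times that of WT control. For *Cd8a* the ratio was 0.423 and 0.417 in the WT controls, 0.199 and 0.0804 in the *Unc93b1* 3d/3d controls, and after αMARCO 0.148 and 0.121 in WT and 0.102 and 0.0524 in *Unc93b1* 3d/3d mice. The *Cd8a* ratio was 3.00 times higher in the WT controls than in the *Unc93b1* 3d/3d controls, and *Cd8b1* was 2.52 times higher. *Trac*, by contrast, was at 1.49 and 1.02 in the WT controls and 2.06 and 0.983 in the *Unc93b1* 3d/3d controls, and the groups overlapped. The denominators in the *Unc93b1* 3d/3d controls rest on 86 and 67 counts, and these ratios carry no test.

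Over the 39 genes other than the 4 chains of the denominator, 20 had a lower ratio in both WT control libraries than in both *Unc93b1* 3d/3d control libraries, 6 had a higher one and 13 overlapped. The 6 were *Cd8a*, *Ifng*, *Cd8b1*, *Cd96*, *Themis* and *Trbc2*. The largest ratios of *Unc93b1* 3d/3d control over WT control after *Cd4* were for *Il7r* (8.73), *Lag3* (4.98), *Cd226* (4.90), *Txk* (3.78), *Foxp3* (3.59) and *Fyn* (3.23). With *Cd3e* alone as the denominator, 12 genes were lower in the WT controls, 3 higher and 24 overlapped.

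**Figure D4:**
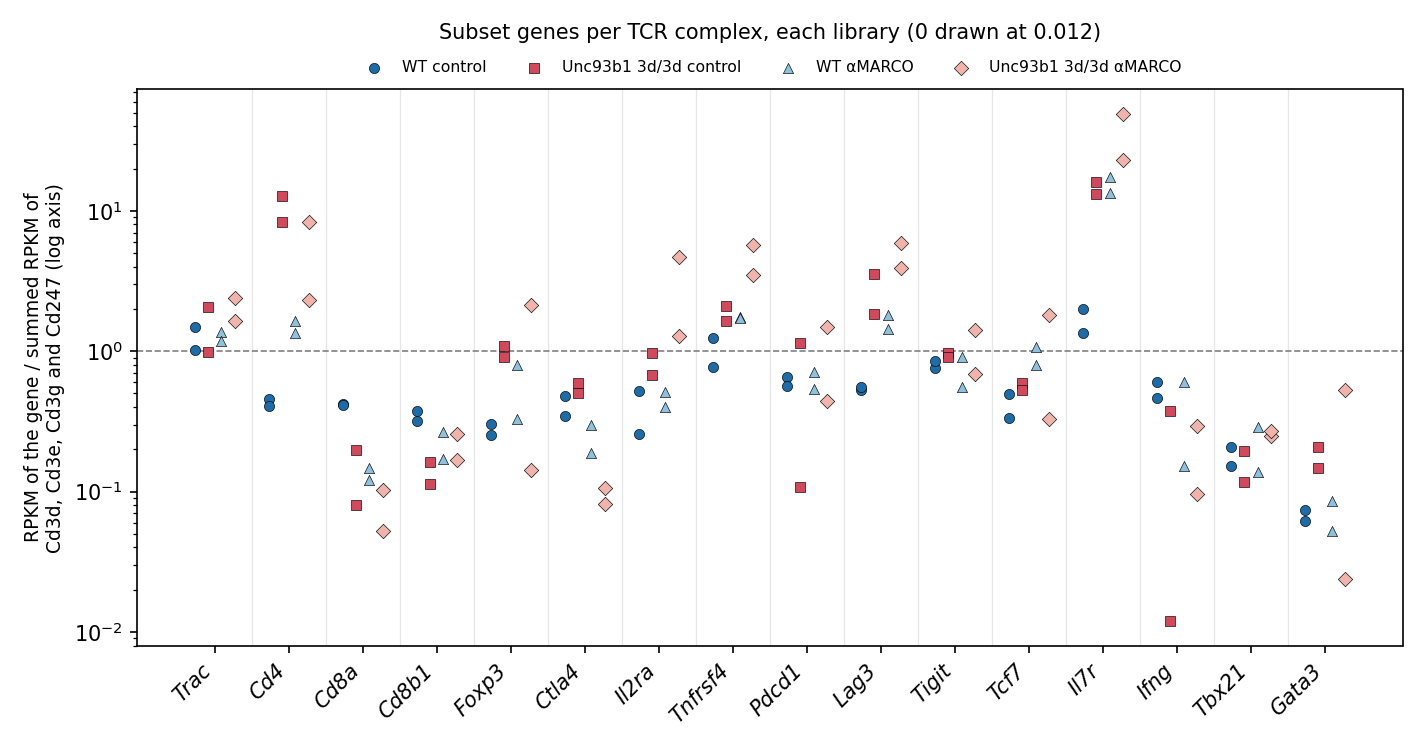
RPKM of 16 genes divided by the summed RPKM of *Cd3d*, *Cd3e*, *Cd3g* and *Cd247* in the same library, on a log axis, with a dashed line at 1. *Il7r* lies above 1 in all libraries, *Cd4* in all but the WT control libraries, and *Cd8a* and *Cd8b1* are highest in the WT controls.

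*Foxp3*, the lineage factor of regulatory T cells, was at 12.4 and 13.5 CPM in the WT controls, 7.91 and 4.41 in the *Unc93b1* 3d/3d controls, and after αMARCO 3.15 and 2.20 in WT and 3.07 and 0.408 in *Unc93b1* 3d/3d mice. The groups did not overlap between the controls, and its log2 fold change of 1.06 ± 0.27 (adjusted p = 0.0274) was the smallest of the called genes that were higher in WT. Without replicate 2 of the *Unc93b1* 3d/3d controls it was 0.69 and not called (adjusted p = 0.0855). With αMARCO in WT the log2 fold change of *Foxp3* was −2.28 ± 0.23 (adjusted p = 1.73e-04). Per TCR complex, *Foxp3* stood at 0.305 and 0.252 in the WT controls and 1.09 and 0.911 in the *Unc93b1* 3d/3d controls. *Foxp3* overlaps *Gm36995* on the other strand and *Flicr* on its own, which had 211 and 103 counts over the 8 libraries.

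*Ctla4*, an inhibitory receptor that regulatory T cells express constitutively, was at 11.4 and 10.8 CPM in the WT controls, 2.51 and 1.42 in the *Unc93b1* 3d/3d controls, and after αMARCO 0.437 and 1.16 in WT and 0.0903 and 0.136 in *Unc93b1* 3d/3d mice. The log2 fold change was 2.49 ± 0.30 between the control groups (adjusted p = 0.00102) and −3.73 ± 0.35 with αMARCO in WT (adjusted p = 1.60e-04). The ratio of *Ctla4* to the TCR complex was lower with αMARCO, at 0.189 and 0.298 in WT and 0.107 and 0.0818 in *Unc93b1* 3d/3d mice. In the controls it was 0.479 and 0.345 in WT and 0.592 and 0.502 in *Unc93b1* 3d/3d mice. Of the 8 listed regulatory T cell genes, which include *Foxp3* and *Ctla4*, 6 were called higher in the WT controls and 0 lower, and 7 were called lower with αMARCO in WT and 0 higher. Among the others, the transcription factor *Ikzf4* had log2 fold changes of 2.63 ± 0.33 and −3.04 ± 0.35 in these comparisons, and the costimulatory receptors *Tnfrsf18* (2.42 ± 0.31 and −2.71 ± 0.26) and *Tnfrsf4* (1.98 ± 0.30 and −2.30 ± 0.24) went the same way.

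Among the receptors of exhausted cells, *Pdcd1*, which encodes PD-1, was at 12.9 and 14.6 CPM in the WT controls and 4.02 and 0.254 in the *Unc93b1* 3d/3d controls. The groups did not overlap, but the 2 *Unc93b1* 3d/3d control libraries differed widely and the difference was not called (log2 fold change 2.73 ± 1.14, adjusted p = 0.226), although it was when either of these libraries was left out (log2 fold changes 5.72 and 1.75). *Pdcd1* had 1.36 and 1.74 CPM in WT with αMARCO and 1.04 and 0.612 in *Unc93b1* 3d/3d with αMARCO, and was called lower with αMARCO in WT (log2 fold change −3.13 ± 0.23, adjusted p = 5.78e-05). *Lag3*, a receptor for MHC class II, was at 11.3 and 15.7 CPM in the WT controls, 7.09 and 9.08 in the *Unc93b1* 3d/3d controls, and after αMARCO 3.01 and 6.33 in WT and 4.51 and 5.85 in *Unc93b1* 3d/3d mice. Its spread over the groups was the narrowest of the 5 inhibitory receptors, with a log2 fold change of 0.72 ± 0.23 between the control groups (adjusted p = 0.0537) and −1.51 ± 0.35 with αMARCO in WT (adjusted p = 0.0166). Between the control groups *Lag3* was called without replicate 1 of the WT controls, and with αMARCO in WT it was not called without their replicate 2 (adjusted p = 0.0588). *Lag3* is also made by NK cells and plasmacytoid dendritic cells.

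*Tigit*, a receptor shared by regulatory, exhausted and NK cells, was at 7.42 and 11 CPM in the WT controls, 1.69 and 1.07 in the *Unc93b1* 3d/3d controls, and after αMARCO 0.534 and 1.47 in WT and 0.496 and 0.476 in *Unc93b1* 3d/3d mice. It was called in both comparisons (log2 fold changes 2.74 ± 0.35 and −3.15 ± 0.41, adjusted p = 0.00121 and 9.77e-04), and its ratio to the TCR complex was 0.756 and 0.856 in the WT controls, 0.967 and 0.911 in the *Unc93b1* 3d/3d controls, and after αMARCO 0.560 and 0.912 in WT and 1.42 and 0.693 in *Unc93b1* 3d/3d mice. *Cd96*, which shares ligands with TIGIT, was at 2.58 and 2.66 CPM in the WT controls and 0.126 and 0.152 in the *Unc93b1* 3d/3d controls, or 97 against 5 counts, a ratio of 18.7 (95% exact interval 7.73 to 58.8, counting error only). In αMARCO mice it was at 0.388 and 0.501 CPM in WT and 0.181 and 0.136 in *Unc93b1* 3d/3d, and *Cd96* was called in both comparisons (log2 fold changes 4.15 ± 0.57 and −2.52 ± 0.43). Of the 10 listed exhausted T cell genes, which include *Pdcd1*, *Lag3* and *Tigit*, 9 were tested. Of these, 4 were called higher in the WT controls and 6 lower with αMARCO in WT, and none was called in the other direction. *Tox*, a factor of the exhausted state, had log2 fold changes of 2.33 ± 0.59 and −2.83 ± 0.51 in the comparisons, and the chemokine receptor *Cxcr6* 1.42 ± 0.30 and −1.63 ± 0.30.

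Naive and memory T cell genes were mixed. *Tcf7*, which encodes TCF1, was at 13.3 and 11.8 CPM in the WT controls, 2.82 and 1.67 in the *Unc93b1* 3d/3d controls, and after αMARCO 2.77 and 3.51 in WT and 1.71 and 0.612 in *Unc93b1* 3d/3d mice, and was called in both comparisons (log2 fold changes 2.47 ± 0.29 and −1.98 ± 0.21, adjusted p = 8.07e-04 and 2.26e-04). *Lef1*, which in peripheral T cells is most abundant in naive ones, had only 11 and 16 counts in the WT controls, 2 and 4 in the *Unc93b1* 3d/3d controls, and after αMARCO 2 and 5 in WT and 0 and 0 in *Unc93b1* 3d/3d mice. It was not called between the control groups (log2 fold change 2.07 ± 0.80, adjusted p = 0.101) and was called lower with αMARCO in WT (−2.24 ± 0.74, adjusted p = 0.0399). That call was lost in 8 of 9 alternatives, with each single library left out among them (adjusted p up to 0.332). Per length *Lef1* was the lowest of the 43 genes in the WT controls, at 0.0659 and 0.101 RPKM, where *Tcf7* was at 5.05 and 4.48.

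*Il7r*, the α chain of the IL-7 receptor, did not follow most of the T cell genes. It had 94.6 and 84.0 CPM in the WT controls, 111 and 90.9 in the *Unc93b1* 3d/3d controls, and after αMARCO 79.7 and 104 in WT and 82.5 and 76.7 in *Unc93b1* 3d/3d mice. All groups overlapped or lay close together, and the log2 fold changes of −0.19 ± 0.12 between the control groups and 0.05 ± 0.13 with αMARCO in WT were not called (adjusted p = 0.291 and 0.781). Its ratio to the TCR complex was 1.99 and 1.35 in the WT controls and 48.6 and 23.1 in *Unc93b1* 3d/3d with αMARCO. Of the 10 listed naive and memory genes, which include these 3, 9 were tested, 4 were called higher in the WT controls, and with αMARCO in WT 4 were called lower and 1 (*Klf2*) higher. *Ccr7*, the lymph node homing receptor of naive T cells and mature dendritic cells, was at 214 and 119 CPM in the WT controls and 16.4 and 11.1 in the *Unc93b1* 3d/3d controls. *Satb1*, a chromatin organizer of T cells, had log2 fold changes of 1.85 ± 0.28 and −1.82 ± 0.29.

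Among the Th1, Th2 and Th17 lists, the Th1 list had the most called genes in both comparisons. Which cells made this RNA was not tested. *Ifng*, the cytokine of Th1, CD8 and NK cells, was at 7.95 and 7.98 CPM in the WT controls, 0.879 and 0 in the *Unc93b1* 3d/3d controls, and after αMARCO 0.194 and 1.31 in WT and 0.0451 and 0.272 in *Unc93b1* 3d/3d mice. The WT control libraries were nearly equal and far above the rest (log2 fold changes 4.26 ± 0.92, adjusted p = 0.0344, and −3.31 ± 0.59, adjusted p = 0.00764). The call between the control groups was lost in 5 of 9 alternatives, among them when either WT control library was left out (adjusted p = 0.365 and 0.330), and leaving out single libraries moved this log2 fold change between 3.15 and 10.2, the latter without replicate 1 of the *Unc93b1* 3d/3d controls, where the remaining library was at 0. The call with αMARCO in WT was also lost when either WT control library was left out (adjusted p = 0.0641 and 0.0628). *Tbx21*, the factor T-bet, was at 5.26 and 5.10 CPM in the WT controls, 0.879 and 0.355 in the *Unc93b1* 3d/3d controls, and after αMARCO 0.340 and 1.20 in WT and 0.226 and 0.476 in *Unc93b1* 3d/3d mice, with log2 fold changes of 3.08 ± 0.43 (adjusted p = 0.00219) and −2.69 ± 0.45 (adjusted p = 0.00232). Of the 5 Th1 genes, 4 were called higher in the WT controls and 5 lower with αMARCO in WT. Besides *Ifng* and *Tbx21*, the IL-12 receptor chain *Il12rb2* had 2.64 ± 0.33 and −2.53 ± 0.23, and *Stat4*, which signals from it, 1.88 ± 0.34 and −1.56 ± 0.27. *Cxcr3*, the receptor for CXCL9 and CXCL10, was called only with αMARCO in WT (0.52 ± 0.37 and −1.26 ± 0.28).

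*Gata3*, the factor of Th2 cells and innate lymphoid cells, was at 3.00 and 3.27 CPM in the WT controls, 1.51 and 0.710 in the *Unc93b1* 3d/3d controls, and after αMARCO 0.340 and 0.347 in WT and 0.767 and 0.0680 in *Unc93b1* 3d/3d mice. The log2 fold changes were 1.5 ± 0.44 (adjusted p = 0.0413) and −3.16 ± 0.42 (adjusted p = 6.94e-04). The first call was lost in 4 of 10 alternatives (adjusted p up to 0.359), among them without replicate 2 of the WT controls and without replicate 2 of the *Unc93b1* 3d/3d controls. Of the 7 Th2 and ILC2 genes 5 were tested, and *Gata3* was the one called between the control groups, while *Gata3*, *Rora* and *Areg* were called lower with αMARCO in WT. The Th17 genes were near the limit of detection, with the chemokine receptor *Ccr6* at 1.89 and 0.610 CPM in the WT controls and 0.377 and 0.406 in the *Unc93b1* 3d/3d controls. *Il23r* had 15 and 8 counts in WT and 4 and 0 in *Unc93b1* 3d/3d control libraries, and *Il17f* had 0 and 0 and, in the mutant, 0 and 2. Of the 5 listed Th17 genes 4 were in the tables and 2 were tested between the control groups, with none called. *Il23r* and *Il17f* had too few counts to be tested there. *Ccr6* was called lower with αMARCO in WT (−2.54 ± 0.84, adjusted p = 0.0411, edgeR), as the 1 gene of the list tested in that comparison.

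The kinases and adaptors went with the TCR complex, with *Fyn* apart. Of the 11 genes, 8 were called higher in the WT controls and 10 lower with αMARCO in WT. *Lck*, the kinase that starts TCR signalling, was at 19.7 and 19.2 CPM in the WT controls, 5.40 and 2.43 in the *Unc93b1* 3d/3d controls, and after αMARCO 2.47 and 2.58 in WT and 1.35 and 0.816 in *Unc93b1* 3d/3d mice (log2 fold changes 2.32 ± 0.33, adjusted p = 0.00432, and −2.93 ± 0.18, adjusted p = 2.23e-05). *Zap70*, the kinase that docks on the CD3 chains, was at 9.95 and 12.8 CPM in the WT controls, 3.64 and 1.27 in the *Unc93b1* 3d/3d controls, and after αMARCO 1.60 and 2.24 in WT and 0.632 and 0.748 in *Unc93b1* 3d/3d mice (2.22 ± 0.44, adjusted p = 0.0162, and −2.54 ± 0.25, adjusted p = 1.73e-04). For both kinases WT control was above all other libraries, and the 6 others lay within 0.632 to 5.40 CPM.

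*Themis*, needed for T cell selection in the thymus, was among the 5 largest called changes in both comparisons. It was at 3.42 and 3.55 CPM in the WT controls, 0.314 and 0.254 in the *Unc93b1* 3d/3d controls, and after αMARCO 0.0971 and 0.424 in WT and 0.226 and 0.136 in *Unc93b1* 3d/3d mice (log2 fold changes 3.58 ± 0.46 and −3.63 ± 0.53, adjusted p = 0.00132 and 9.55e-04). *Trbc1*, described above with the TCR complex, was the fifth with αMARCO in WT (9.05 and 12.6 CPM in the WT controls and 0.631 and 1.12 in WT αMARCO, log2 fold change −3.58 ± 0.32, adjusted p = 1.12e-04). The adaptors *Lat*, *Skap1* and *Sh2d2a* and the phosphatase-like *Ubash3a*, a brake on TCR signalling, had log2 fold changes from 2.28 to 2.92 between the control groups and from −2.96 to −2.15 with αMARCO in WT, all called. *Txk* and *Prkcq* (protein kinase C θ) were not called between the control groups (adjusted p = 0.136 and 0.146) and were called lower with αMARCO in WT. *Sh2d1a*, an adaptor of SLAM receptors with at most 2.0 CPM, was called in neither. *Fyn*, a Src kinase that macrophages also express, was at 146 and 144 CPM in the WT controls, 60.9 and 57.8 in the *Unc93b1* 3d/3d controls, and after αMARCO 82.5 and 80.0 in WT and 43.6 and 33.9 in *Unc93b1* 3d/3d mice. It had the highest level per length of the 43 genes in the WT controls (33.5 and 33.1 RPKM), and smaller but called changes (1.28 ± 0.09, adjusted p = 5.80e-05, and −0.83 ± 0.07, adjusted p = 1.17e-04).

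Of the adhesion and costimulatory receptors, *Thy1* (Thy-1), *Cd2*, *Cd5*, *Cd6* and *Cd28* were called in both comparisons, with log2 fold changes from 1.5 to 3.17 and from −3.28 to −2.08. *Thy1* was the highest of them in the WT controls at 25.8 and 27.5 CPM and *Cd28*, the receptor for CD80 and CD86, the lowest of those called at 1.95 and 1.77. *Icos*, a costimulatory receptor of helper and regulatory T cells, was at 3.79 and 4.93 CPM in the WT controls and 2.95 and 0.761 in the *Unc93b1* 3d/3d controls and was not called there (adjusted p = 0.167), but fell by 3.01 on the log2 scale with αMARCO in WT (adjusted p = 5.13e-04). *Cd226*, an activating receptor of T and NK cells that is also found on myeloid cells, was called in neither comparison and had 2.67 and 1.54 CPM in WT with αMARCO against 1.79 and 3.82 in the WT controls. *Bcl11b*, the T lineage commitment factor (2.49 ± 0.59 and −3.06 ± 0.31), and *Gimap3*, a lymphocyte GTPase (2.28 ± 0.47 and −2.61 ± 0.16), were called in both, but not between the control groups when either WT control library was left out (adjusted p from 0.0940 to 0.348). *Il2rb*, a chain of the IL-2 and IL-15 receptors, was at 43.8 and 46.2 CPM in the WT controls and 12.6 and 3.04 in the *Unc93b1* 3d/3d controls. It was not called between the control groups (adjusted p = 0.147), except when either *Unc93b1* 3d/3d control library was left out or with DESeq2, and was called lower with αMARCO in WT (−2.79 ± 0.16, adjusted p = 2.23e-05).

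**Figure D5:**
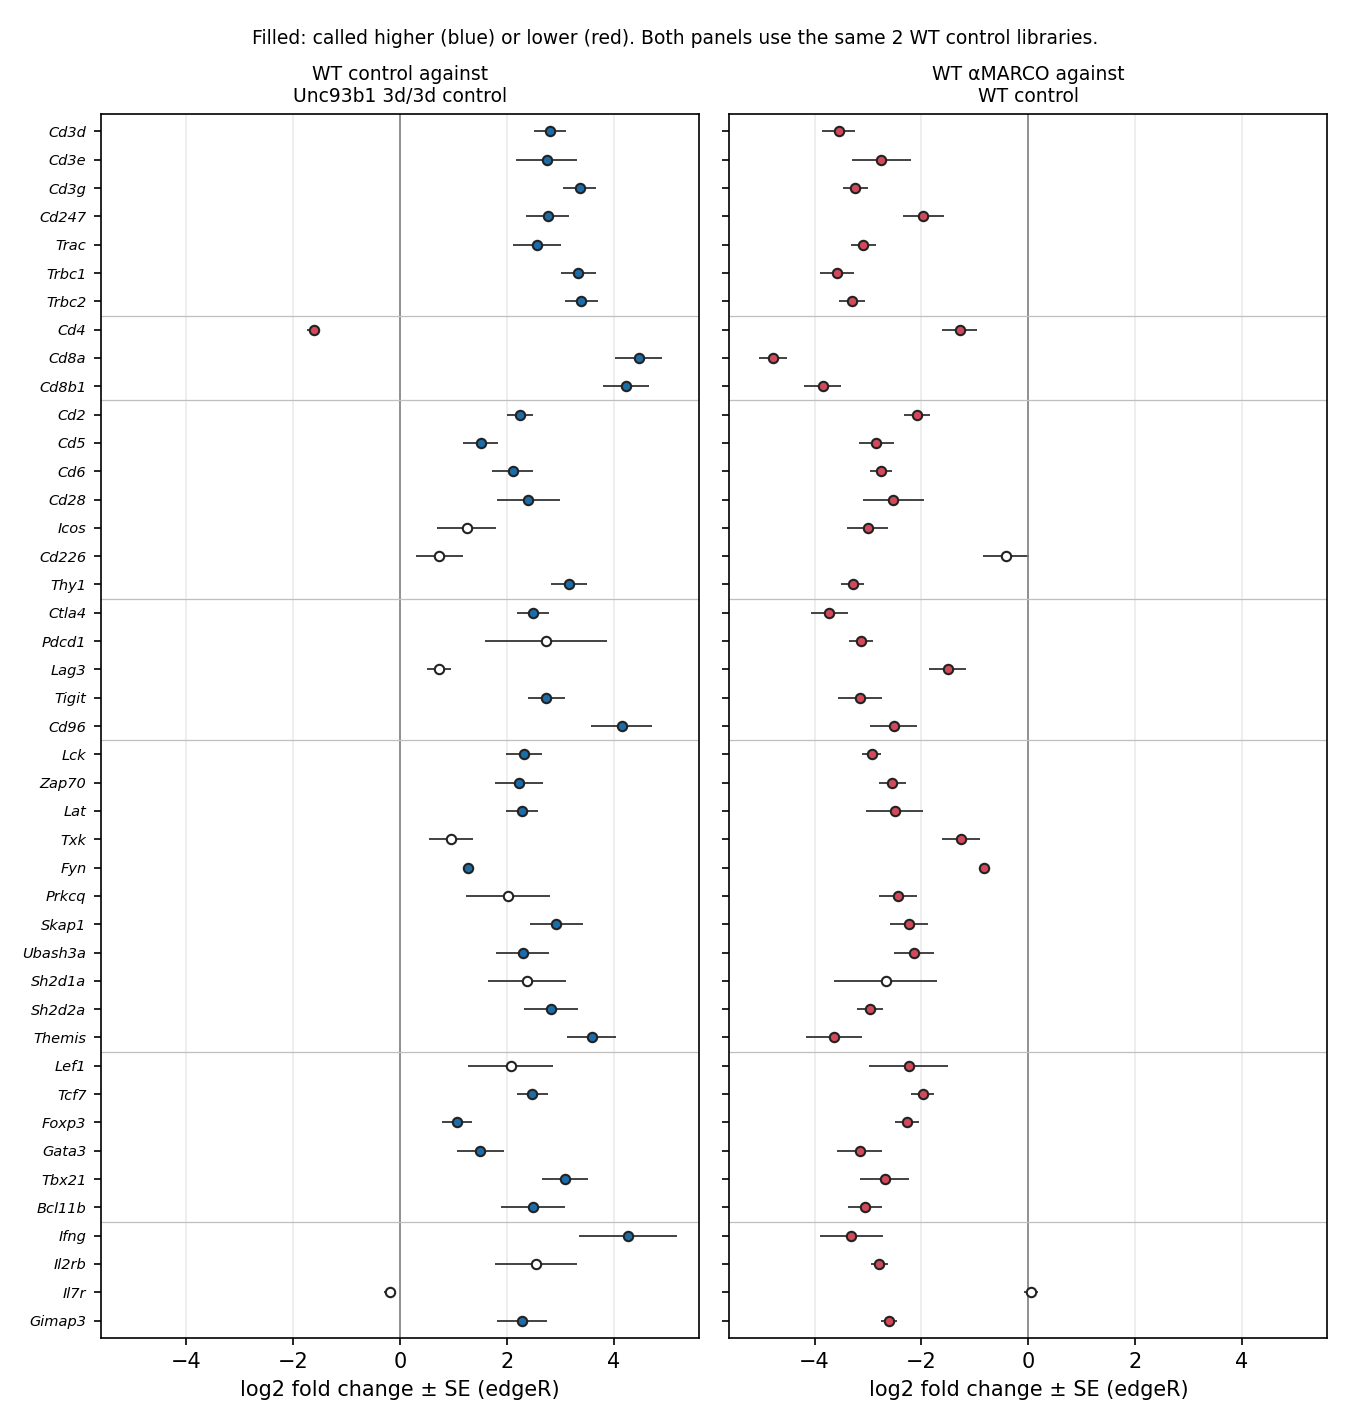
Log2 fold change ± SE (edgeR) of each of the 43 genes between WT control and *Unc93b1* 3d/3d control (left) and between WT αMARCO and WT control (right), filled where called. In the left panel 32 genes are called higher and *Cd4* lower, and in the right panel 40 are called lower, with the same WT control libraries in both panels.

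Between the control groups, the *Unc93b1* 3d/3d control libraries differed from each other for many of the genes that were not called, with replicate 1 above replicate 2 for *Pdcd1*, *Icos*, *Prkcq* and *Il2rb*. Leaving out single libraries of this comparison moved the log2 fold change between 1.75 and 5.72 for *Pdcd1* and between 0.54 and 2.50 for *Icos*. For *Prkcq* it moved between 1.17 and 3.86, and for *Il2rb* between 1.82 and 3.87. That of *Cd4* stayed between −1.74 and −1.49.

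In *Unc93b1* 3d/3d mice, αMARCO against control gave no called change. Of the 43 genes, 31 passed the filter on low counts, and edgeR called 0 in either direction, as it did for all 15428 tested genes (0%). At an unadjusted p of at most 0.05 there were 9 of the 31, where 4.82% of all tested genes were. DESeq2 called 1 of the 31, and 0.389% of all tested genes. The mean CPM was lower with αMARCO than in control for 41 of the 43 genes, *Trbc1* and *Cd96* being the others. Both αMARCO libraries were below both control libraries for 29 of the 43. Among the 31 tested it was 23, where 19.2% of all tested genes had this order. *Cd4* was at 61.6 and 62.2 CPM in control and 12.2 and 6.66 with αMARCO, with a log2 fold change of −2.70 ± 0.33 (adjusted p = 0.729). For *Ctla4* there were 68 counts in the 2 control libraries and 4 in the 2 αMARCO libraries, a ratio of 17.6 (95% exact interval 6.56 to 66.4, counting error only), and the log2 fold change was −4.07 ± 0.80 (adjusted p = 0.823). *Cd8a* had 28 and 5 counts, a ratio of 5.79 (2.21 to 19.2), and was not tested. *Lef1* was at 0 in both αMARCO libraries, at least 2.07-fold lower than in control when 3 counts over the group are taken as the limit.

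The result depended on the *Unc93b1* 3d/3d αMARCO libraries. Without replicate 1 of that group, 9 genes were called lower, *Cd4*, *Foxp3*, *Ctla4*, *Icos*, *Lck* and *Fyn* among them, or 24.3% of the 37 then tested, where 34.1% of all tested genes were called. Without replicate 2 it was 4 of 38 genes (10.5%), where 3.41% of all tested genes were called, and without replicate 2 of the *Unc93b1* 3d/3d controls 1. In these fits the lone library is assumed to vary like the pair of the other group. For *Foxp3* the 2 αMARCO libraries were at 3.07 and 0.408 CPM, and for *Tcf7* at 1.71 and 0.612.

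With αMARCO in both genotypes, WT against *Unc93b1* 3d/3d gave 0 called genes among the 31 of 43 that passed the filter, as among all 15722 tested genes (0%). At an unadjusted p of at most 0.05 there were 12, where 6.84% of all tested genes were. DESeq2 called 1 (*Fyn*) of the 31, and 1.37% of all tested genes. *Fyn* was at 82.5 and 80.0 CPM in WT with αMARCO and 43.6 and 33.9 in *Unc93b1* 3d/3d with αMARCO, with a log2 fold change of 1.07 ± 0.20 (adjusted p = 0.365, edgeR). The means of 38 of the 43 genes were lower in *Unc93b1* 3d/3d, the others being *Trbc1*, *Cd4*, *Cd5*, *Lag3* and *Gata3*. Both WT libraries were above both mutant libraries for 27 of the 43. Among the 31 tested it was 21, where 22.1% of all tested genes had this order. *Cd5*, a damper of TCR signalling that B-1 cells also carry, was at 0.874 and 2.04 CPM in WT with αMARCO and 3.48 and 3.54 in *Unc93b1* 3d/3d with αMARCO. Without replicate 1 of *Unc93b1* 3d/3d αMARCO, 13 genes were called higher in WT and *Cd5* lower, or 37.8% of the 37 then tested, where 38.6% of all tested genes were called. Without replicate 2, 7 of 38 were called higher, where 7.45% of all tested genes were called.

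Whether αMARCO acted differently in the genotypes was tested as the difference of its effects over all 8 libraries. None of the 43 genes was called, nor any of the 16620 tested (0%). At an unadjusted p of at most 0.05 there were 11 of 43, where 15.3% of all tested genes were. DESeq2 called 2 of the 43, and 1.25% of all tested genes. *Trbc1* had the largest difference, −3.64 ± 0.60 (adjusted p = 0.281), and *Cd4* was among the 6 genes with a difference above 0, where 48% of tested genes were, at 1.4 ± 0.51 (adjusted p = 0.318). Without replicate 1 of *Unc93b1* 3d/3d αMARCO 7 of the 43 genes (16.3%) were called, where 36.4% of all tested genes were, and without replicate 2 there were 2, where 3.45% were. A fall called in WT mice and not in *Unc93b1* 3d/3d mice is thus not shown to differ between them here.

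The further genes of the TCR pathway include many that macrophages also express. Of 30 listed genes 27 were tested, 11 were called higher in the WT controls and 2 lower, and with αMARCO in WT 8 were called lower and 1 higher. The median log2 fold change was 0.48 between the control groups and −0.22 with αMARCO in WT. The adaptors *Grap2* (2.35 ± 0.10) and *Sit1* (2.26 ± 0.67) and the costimulatory receptor *Cd27* (1.83 ± 0.47) were among those called higher in the WT controls.

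Some genes of other lymphocytes and of dendritic cells were called in the same direction as the T cell genes. The summed level of 5 cytotoxic granule genes was 104 and 97.3 CPM in the WT controls, 28.2 and 7.81 in the *Unc93b1* 3d/3d controls, 6.02 and 14.5 in WT with αMARCO, and 4.51 and 6.80 in *Unc93b1* 3d/3d with αMARCO. Of the 5, *Nkg7* (3.59 ± 0.61) and *Gzmk*, which was listed at 0 in both *Unc93b1* 3d/3d control libraries, were called higher in the WT controls, and *Prf1*, *Gzma* and *Gzmb* were not (adjusted p = 0.0854, 0.145 and 0.132). The 10 NK cell markers, which share *Prf1*, *Gzma* and *Nkg7* with that list, summed to 103 to 117 CPM in the WT controls and 39.9 to 64.9 elsewhere. *Klrk1* was the highest of them, and 4 were called higher in the WT controls and 5 lower with αMARCO in WT. Both WT control libraries were above both *Unc93b1* 3d/3d control libraries for 8 of the 10, where 33.2% of tested genes had this order. *Ncr1*, the most specific of them, was at 0.895 and 0.554 CPM in the WT controls and 0.942 and 0.710 in the *Unc93b1* 3d/3d controls. It was not called, and rests on only 17 and 10 counts in the WT controls and 15 and 14 in the *Unc93b1* 3d/3d controls. The 7 B cell markers summed to 111 and 157 CPM in the WT controls, mostly from *Ighm*, and 26.3 to 80.0 elsewhere, and 3 of 5 tested were called higher in the WT controls and 1 of 5 lower with αMARCO in WT, where 2 had log2 fold changes above 0. *Cd79a*, which every B cell carries, stayed at or below 0.617 CPM in all libraries.

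Mature dendritic cell markers had a wide gap, at 831 and 426 CPM in the WT controls and 56.1 to 108 in the other 6 libraries. Their 2 called genes between the control groups were *Ccr7* and *Nudt17*, and 4 of 5 tested were called lower with αMARCO in WT. The 5 type 1 dendritic cell markers, of which *Irf8* was the highest, summed to 468 and 491 CPM in the WT controls and 269 to 344 elsewhere. Of these, 2 were called higher in the WT controls and 3 lower with αMARCO in WT. The plasmacytoid dendritic cell markers (79.4 to 114 CPM), neutrophil markers (205 to 360) and epithelial tumor cell markers (30.8 to 106) had none called between the control groups. The neutrophil and epithelial lists had 2 each called lower with αMARCO in WT. The highest genes of these sums were *Tcf4*, *Csf3r* and *Krt8*. In replicate 1 of WT control *Tcf4* had 1574 counts, against 20 for *Pacsin1*, 3 for *Ccr9* and 2 for *Siglech*. *Csf3r* had 4975 there, against 463 for *S100a9* and 16 for *Ly6g*. Of the macrophage and gate genes, 2 were called higher and 1 lower in the WT controls, and 1 higher and 3 lower with αMARCO in WT. The part of these other cell types in the levels of the 43 genes was not tested.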

How the data were processed

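Bulk RNA-seq of 8 sorted TAM libraries, 2 in each of 4 groups, was taken from the deposited tables. Per the submitters' processing notes, reads were trimmed with fastp, aligned to GRCm38 with HISAT2 2.0.5 and counted per gene with featureCounts 1.5.0, and the authors tested with DESeq2 1.40.2. Strandedness is not given in the sources used here. The deposited raw counts, which agreed in every table that shared a library, were used. The authors' normalized counts and group means (signal), FPKM values, log2 fold changes and p-values were not used. Library totals were 15182618 to 26411936 counts, which limits genes under a few counts to a description.

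Comparisons used edgeR 4.0.16 quasi-likelihood tests with TMM scaling, filterByExpr and robust dispersions in R 4.3.3, with 4 libraries per comparison and all 8 for the difference of αMARCO effects. Standard errors were derived from the log2 fold change and the F statistic. CPM and RPKM used TMM over 8 libraries and the gene lengths in the tables. The code was checked on simulated data. Alternatives were DESeq2 1.42.0, other scalings, filters, designs and fold thresholds, a replicate block and leaving out each library.

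The 43 genes and all lists were chosen with earlier results of these data known. Genes with full values were a fixed set of 18 subset, receptor and kinase genes plus the 5 largest called changes in each comparison. Of other lists up to 4 called genes with the largest changes were named, and all genes of lists with 5 or fewer detected. The remaining genes of the 43 are given with the values needed to account for them, and *Ncr1* was named after its values were seen. Results of 2 listed genes are not reported here.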

Additional observations from a re-analysis of the deposited data

How the results depend on the processing

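Of the 43 genes, 33 were called between the control groups and 40 with αMARCO in WT. With all 8 libraries in 1 model the counts were 19 and 15, where 2.19% and 0.987% of all 16620 tested genes were called. Leaving out single libraries changed no sign between the control groups, but several calls named above were lost. With αMARCO in *Unc93b1* 3d/3d mice the count of 0 became 1 with DESeq2, 3 without the filter beyond 1 count, 1 with the replicate block and 0 to 9 leaving out single libraries. Between genotypes under αMARCO it became 1 with DESeq2, 1 with all 8 libraries and 0 to 14 leaving out single libraries, where the 14 are 37.8% of the genes then tested against 38.6% of all tested genes. For the difference of αMARCO effects it became 2 with DESeq2, 2 without the filter and 0 to 7 leaving out single libraries, where the 7 are 16.3% against 36.4% of all tested genes. The highest count in *Unc93b1* 3d/3d mice, 9, is 24.3% against 34.1%. The cause was not tested. Of all tested genes, DESeq2 called 0.389%, 1.37% and 1.25% in these comparisons in turn. Without the filter, 0.7% were called with αMARCO in *Unc93b1* 3d/3d mice and 0.564% for the difference of αMARCO effects. The replicate block called 0.0324% with αMARCO in *Unc93b1* 3d/3d mice, and all 8 libraries in 1 model 0.65% between genotypes under αMARCO. Where a group is left with 1 library, that library is assumed to vary like the pair of the other group.

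Some uncalled genes changed sign when a library was left out. With αMARCO in WT the log2 fold changes then ranged from −0.87 to 0.22 for *Cd226* and −0.16 to 0.24 for *Il7r*, with −0.04 for *Il7r* without replicate 2 of WT control. With αMARCO in *Unc93b1* 3d/3d they ranged from −0.22 to 0.42 for *Trbc1*, −0.54 to 0.50 for *Cd5*, −2.26 to 1.69 for *Pdcd1*, −1.72 to 0.96 for *Prkcq* and −1.90 to 0.43 for *Bcl11b*. Between genotypes under αMARCO they ranged from −0.77 to 0.054 for *Trbc1*, −0.81 to 0.32 for *Cd4*, −0.78 to 0.30 for *Lag3* and −0.21 to 2.69 for *Foxp3*.

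With *Cd3e* alone as denominator, 12 rather than 20 ratios were lower in both WT control libraries. Of the variable segments, 32 had at least 1 count in both WT control libraries and 1 had at least 10, against 12 with at least 3. Whether same-numbered libraries shared more than a number is not known. Their deviations correlated at 0.111 and 0.135 in 2 comparisons and near 0 in the others. With 2 pairs each, these values cannot decide it. The replicate block gave 34 and 40 called genes in the first 2 comparisons, where 15.4% and 19.7% of all tested genes were called. It gave 0 in the genotype comparison under αMARCO and in the difference of αMARCO effects, where 0.617% and 0% were. In the *Unc93b1* 3d/3d αMARCO group 28 of the 43 genes had a mean under 1 CPM, so their differences rest on few counts.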
